A study of Mus musculus with 2 samples.

Results

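The genes described here are snoRNA host genes, whose introns carry small nucleolar RNAs, most of which guide chemical modification of ribosomal RNA. Of 8 listed genes (Gas5, Snhg1, Snhg3, Snhg4, Snhg5, Snhg6, Snhg8 and Snhg12), 5 were matched by identifier to rows of both the gene and the transcript tables, out of 43346 annotated genes: Gas5, Snhg3, Snhg5, Snhg6 and Snhg12, with 50 of 103639 transcripts. Snhg1, Snhg4 and Snhg8 were not analysed here. The data are total RNA-seq of embryonic facial prominence, the swellings that form the upper face and jaws, taken at 11.5 days of development from B6NCrl mice. In the single group there were 2 libraries. Library 1 was made from 109 pooled embryos and library 2 from 88, males and females mixed, and each started from 10 ng of RNA longer than 200 nt. No condition was set against another, so the values are descriptions with the spread between the 2 libraries and no test of conditions. Pools average over embryos, and in bulk tissue fewer cells of a type and less RNA per cell cannot be told apart.

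In a host gene, splicing releases the intron, the lariat is opened, and nucleases trim it back to the snoRNA, which is covered by its core proteins. Most box C/D snoRNAs guide 2′-O-methylation with fibrillarin, and most box H/ACA snoRNAs guide pseudouridylation with dyskerin. In non-coding hosts the spliced exons do not code for a conserved protein, many such RNAs begin with the 5′ terminal oligopyrimidine (TOP) tract known from ribosomal protein mRNAs, and Gas5, named for its accumulation in growth-arrested cells, is a textbook case whose spliced RNA is degraded by nonsense-mediated decay.

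The annotation placed 18 snoRNA loci inside the 5 hosts on the same strand (GRCm38): 9 in Gas5 (chr1:161034422-161038539, plus strand), 4 in Snhg12 (chr4:132308623-132311024, plus strand), 2 in Snhg3 (chr4:132348014-132353686, minus strand), 2 in Snhg5 (chr9:88521050-88522929, minus strand) and 1 in Snhg6 (chr1:9941959-9944118, minus strand). All 18 lay in an intron of at least 1 transcript. In 11 loci the sequence had both a C box (TGATGA) near the 5′ end and a D box (CTGA) near the 3′ end, 4 others had only the ACA of the H/ACA class 3 bases before the 3′ end, and 3 (Gm22489, Snord78 and Snora44) had neither exact form. From its 3′ end to the next exon, a snoRNA was 78 bases away in the median over the 18 loci (65 to 313), and 14 of 18 lay within 100 bases. The exceptions were Gm26224, Snord78 and Snord80 in Gas5, at 278, 238 and 313 bases, and Snora16a in Snhg12, at 237 bases. Each distance was read in the most abundant transcript with the locus in an intron, among those quantified at their annotated length. For Gas5 this was Gas5-210, and distances in other transcripts can differ.

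**Figure D1:**
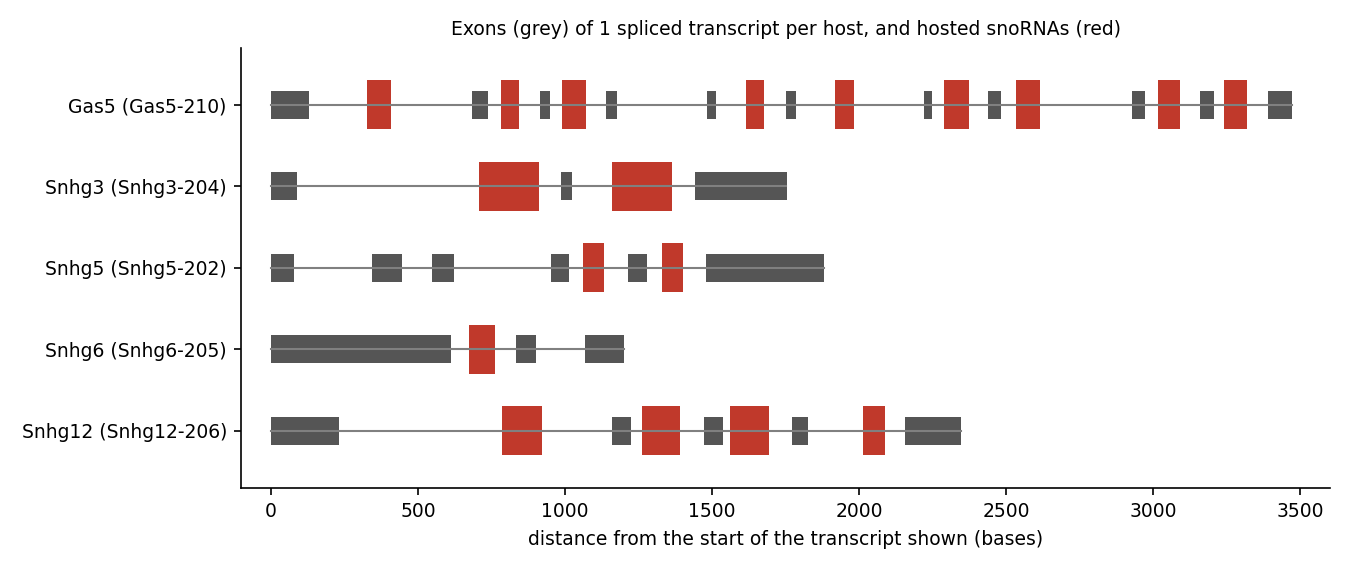
Exons (grey boxes) of the most abundant transcript with at least 3 exons that is not annotated as a retained intron, and hosted snoRNAs (red boxes), for each of the 5 hosts; the horizontal axis is the distance in bases from the start of that transcript. Gas5 alternates short exons with 9 snoRNA-bearing introns, and Snhg6 has 1 snoRNA.

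The following sequences, from the GENCODE transcripts, show the intronic cargo whose presence in host RNA is followed below. Capitals mark the C and D boxes, or the ACA for the H/ACA class.
Snord47 in Gas5 (chr1:161038082-161038158, plus strand): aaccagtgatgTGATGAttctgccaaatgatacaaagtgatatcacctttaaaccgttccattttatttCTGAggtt
Snord80 in Gas5 (chr1:161037601-161037681, plus strand): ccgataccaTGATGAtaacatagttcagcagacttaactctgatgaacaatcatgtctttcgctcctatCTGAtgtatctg
Snord50a in Snhg5 (chr9:88521529-88521600, minus strand): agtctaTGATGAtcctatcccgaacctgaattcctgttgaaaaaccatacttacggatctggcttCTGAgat
Snord50b in Snhg5 (chr9:88521797-88521868, minus strand): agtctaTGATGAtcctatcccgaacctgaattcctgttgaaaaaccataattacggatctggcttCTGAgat
Snord87 in Snhg6 (chr1:9942463-9942549, minus strand): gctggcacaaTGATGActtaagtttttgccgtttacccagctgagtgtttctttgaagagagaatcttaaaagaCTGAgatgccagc
Snord99 in Snhg12 (chr4:132310691-132310764, plus strand): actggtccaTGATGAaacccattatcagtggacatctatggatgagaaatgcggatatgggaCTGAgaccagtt
Snora61 in Snhg12 (chr4:132310240-132310369, plus strand): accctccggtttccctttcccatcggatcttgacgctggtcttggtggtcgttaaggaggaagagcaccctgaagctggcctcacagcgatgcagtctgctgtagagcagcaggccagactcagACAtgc
Snord50a and Snord50b, in neighbouring introns of Snhg5, differed at 1 of 72 positions (C50A, counted from the 5′ end, Snord50a first). Snora73a and Snora73b, in 2 introns of Snhg3, were 96.6% identical over 205 bases, so reads of the pair may not be separable.

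The snoRNAs themselves could not be measured in these files. The authors' effective length was 99 bases below the length of every transcript that had one, so entries no longer than that have an effective length of 0 and were assigned no reads, which covered 13 of the 18 loci. The other 5 were the loci named Snora, of 129 to 205 bases: Snora73b had 1.36 and 4.51 expected counts in library 1 and library 2, Snora61 had 0.75 and 1.93, Snora16a had 0 and 2.00, and Snora73a and Snora44 had 0 in both, which allows up to 3 counts in each library. The RNA was selected above 200 nt, which the Snora73 pair passes by only 5 bases and the other 16 loci do not reach, so these values are not given as levels of mature snoRNA.

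All 5 host RNAs were detected, which means at least 1 TPM in each library, and they spanned a 39-fold range (39.1 ± 1.16, SD over the libraries, n = 2, Gas5 over Snhg12). TPM scales reads by transcript length and by the library, so levels can be compared between genes. Across all annotated genes 32% were detected by this rule, and across long non-coding genes 9.94%. The order was the same in both libraries.

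Gas5, which hosts the largest set, was at 453 TPM in library 1 and 462 TPM in library 2 (457 ± 6.86, SD, n = 2), from 5698 and 5992 expected counts. It took 67.0% of the TPM of the 5 hosts in each library, ranked 289 among all annotated genes and 5 among long non-coding genes. Snhg5, host of the Snord50 pair, was at 92.95 and 96.16 TPM (94.6 ± 2.27), from 1202 and 1300 counts. Snhg6, host of Snord87, was at 83.3 and 88.1 TPM (85.7 ± 3.38), from 869 and 927 counts. Snhg5 was thus the nearest to its neighbour in the order: it exceeded Snhg6 by 1.12-fold in library 1 and 1.09-fold in library 2, and the libraries of the 2 genes did not overlap. Snhg3, host of the Snora73 pair, was at 35.0 and 31.4 TPM (33.2 ± 2.56), from 250 and 234 counts. Snhg12, which hosts Snora16a, Snora44, Snora61 and Snord99, was the lowest, at 11.4 and 12.1 TPM (11.7 ± 0.523), from 132 and 142 counts. Even this level lay above 82.5% of the detected long non-coding genes, although above only 42.9% of all detected genes.

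**Figure D2:**
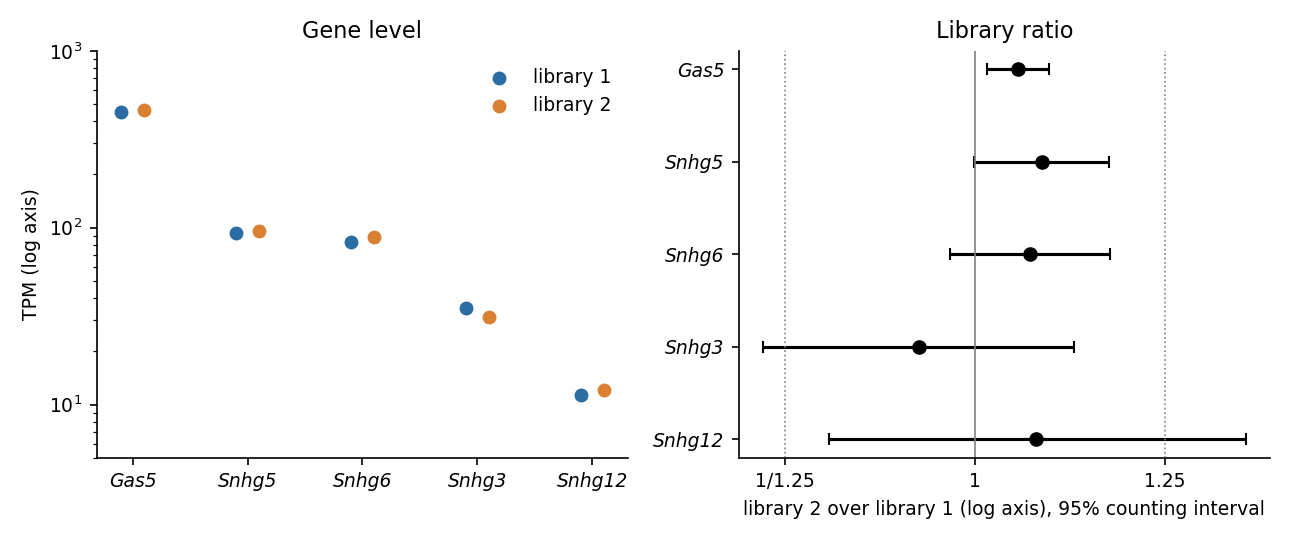
Left, gene level in TPM on a log axis for each host in library 1 (blue) and library 2 (orange). Right, ratio of TMM-scaled expected counts, library 2 over library 1, on a log axis, with the 95% Clopper-Pearson interval for counting error only; dotted lines mark a ratio 25% above 1 either way. The 5 hosts keep their order, from Gas5 at 453 and 462 TPM to Snhg12 at 11.4 and 12.1 TPM, and every ratio lies between the dotted lines.

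Between the libraries, none of the 5 hosts was 25% or more higher in 1 library than in the other. This rule of size was met in either direction by 14.8% of 13739 genes with at least 50 counts and a mean of 1 TPM. With only 5 hosts, finding none is near that share. Library 2 over library 1, the ratio of scaled counts was 1.05 for Gas5 (95% Clopper-Pearson interval of counting error 1.01 to 1.09), 1.08 for Snhg5 (0.999 to 1.17) and 1.07 for Snhg6 (0.972 to 1.17). It was 1.07 for Snhg12 (0.843 to 1.37) and 0.937 for Snhg3 (0.780 to 1.12), the only host that was lower in library 2. Under this TMM scaling the interval excluded 1 for Gas5 alone, and it did so for 43.5% of the 13739 genes, 23.6% with library 2 higher. The Gas5 ratio was nearer to 1 by total counts (1.028) and by TPM (1.021), for which no interval was computed. At the depth of Snhg3 and Snhg12 the intervals reached past a 25% difference, so a difference of that size was not measurable there. The median log2 ratio was 0.09 over the 5 hosts and 0.0045 over the 13739 genes. As the reads carry no molecular identifiers, they are not independent molecules, and intervals and limits cover counting error only.

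The libraries held 30849058 and 31600302 expected counts and carried the markers of the labelled tissue, with 8 of 8 facial mesenchyme markers detected at mean levels of 44.5 to 263 TPM and 4 of 4 surface ectoderm markers at 15.3 to 54.2 TPM. Msx1 was at 278 and 248 TPM, Alx1 at 141 and 121 TPM and Prrx1 at 94.5 and 107 TPM, and of the ectoderm keratins and adhesion genes Epcam was at 56.4 and 52.1 TPM and Krt8 at 43.9 and 39.3 TPM. Barx1, a gene of the jaw mesenchyme, was at 56.6 and 105 TPM, a count ratio of 1.89 (1.77 to 2.01), and Krt18 was at 58.3 and 44.5 TPM, a ratio of 0.777 (0.720 to 0.838). The libraries also differed in markers from outside the prominences. All 3 heart markers were higher in library 2, with count ratios of 3.38 to 10.2: Nppa, the atrial natriuretic peptide, was at 1.46 and 14.7 TPM, Myl7 at 5.76 and 19.1 TPM and Tnnt2 at 3.06 and 10.6 TPM. Of the 3 liver markers, Alb was below 1 TPM in both libraries (0.15 and 0.54), Apoa1 was at 1.46 and 0.92 TPM, and Afp was at 2.28 and 2.89 TPM, a ratio of 1.29 (0.976 to 1.71). The part of these differences in the ratios of the host genes was not tested.

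The hosts also differed in how their RNA was divided among transcripts. The deposited isoform percentage is the share of a gene's TPM given to 1 transcript, and transcript types are those of GENCODE M21, which can differ from the M4 models used for quantification. Transcripts annotated as retained intron took 53.2% and 54.8% of Gas5 (54.0 ± 1.19%, n = 2) and 65.5% and 69.1% of Snhg5 (67.3 ± 2.60%). Among 3662 genes with at least 1 such transcript and a mean of 10 TPM, the median was 4.66% and 3.74% had at least 50%. Among the 22 long non-coding genes of that set the median was 13.7%, and 4 had at least 50%, of which Gas5 and Snhg5 were 2. A gene with more transcripts of this type has more shares to sum, and Gas5 had 20 and Snhg5 had 3. The comparison was not matched for that number. Snhg3, Snhg6 and Snhg12 have no transcript of this type, so no share can be given for them. In Gas5 the share rested on many small contributions: it was 28.6% when only transcripts of at least 5% in either library were summed, and 67.6% as a share of expected counts, in which long transcripts weigh more. In Snhg5, 23.1% and 24.4% came from Snhg5-206, typed in M21 from a model of another length. Another 6.70% and 7.46% of Snhg5 lay in a transcript absent from M21. It has no type and was counted as not retained.

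Gas5 had 25 transcripts, 20 of them annotated as retained intron, and only 35 of 6226 genes of several transcripts (2 or more) and at least 10 TPM had as many. Gas5-210, a fully spliced form of 11 exons, led with 28.7% in library 1 and 26.5% in library 2. Gas5-224, with 12 exons and another start, took 17.7% and 17.97%. Gas5-213, annotated as retained intron but with no whole snoRNA in its exons, took 10.7% and 11.7%. Those 3 kept their order in both libraries, and the other 22 transcripts ranged from 0 to 7.91%, with Gas5-201, Gas5-204 and Gas5-214 listed at 0 in both. With 5 transcripts at 5% or more in both libraries, the effective number of isoforms (the exponential of the Shannon entropy of the shares) was 10.2 and 10.8, against a median of 2.05 over the 6226 genes.

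Snhg5 had 8 transcripts, of which 2 were listed at 0 in both libraries and the other 6 each took 5% or more in both. Snhg5-204, a retained-intron form, took 24.0% and 26.9%. The retained-intron forms Snhg5-206 and Snhg5-205 took 23.1% and 24.4%, and 18.4% and 17.9%, in library 1 and library 2. Of the transcripts of other types, Snhg5-203 took 16.6% and 12.5%, and Snhg5-202, a spliced form of 6 exons in M21, took 11.2% and 10.9%. Retained-intron forms thus held the first 3 places by listed share in both libraries. The third place was not firm in library 1. There the posterior SD was 10.6% of the count for Snhg5-205 and 21.4% for Snhg5-203. Snhg5-206 is 910 bases long in the files and has another length in M21, so its exons are not described here.

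Snhg6 had 5 transcripts, led by Snhg6-205 with 34.2% and 36.8%. Snhg6-203 took 29.6% and 24.0%, Snhg6-204 took 14.4% and 18.8%, and Snhg6-202 took 12.02% and 20.4%. Snhg6-201 was at 9.78% in library 1 and 0.05% in library 2, but its posterior mean shares were 9.51% and 2.99% and the posterior SD of its count in library 1 was 35.5% of the count, so reads were not firmly assigned to it. The total shift of share between the libraries (the percentage points lost by some transcripts and gained by others) was 15.3 percentage points in Snhg6, against a median of 5.18 over the 6226 genes.

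Snhg3 was the simplest. Snhg3-204, of 3 exons, took 82.0% and 83.1%, Snhg3-202 took 7.54% and 13.9%, and Snhg3-203 took 10.5% and 1.83%, the last from a count whose posterior SD exceeded the count in library 2 (109%). Its effective number of isoforms was 1.81 and 1.74, below the median of all such genes. In Snhg12, Snhg12-206, with 5 exons, took 43.9% and 46.7%, Snhg12-205 took 24.3% and 22.1%, and Snhg12-207 took 14.7% and 22.8%. The latter holds Snora61 in an exon and rested on few reads, with a posterior SD of 34.3% of its count in library 1. The leading transcript was the same in both libraries for all 5 hosts, and for 93.7% of the 6226 genes.

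**Figure D3:**
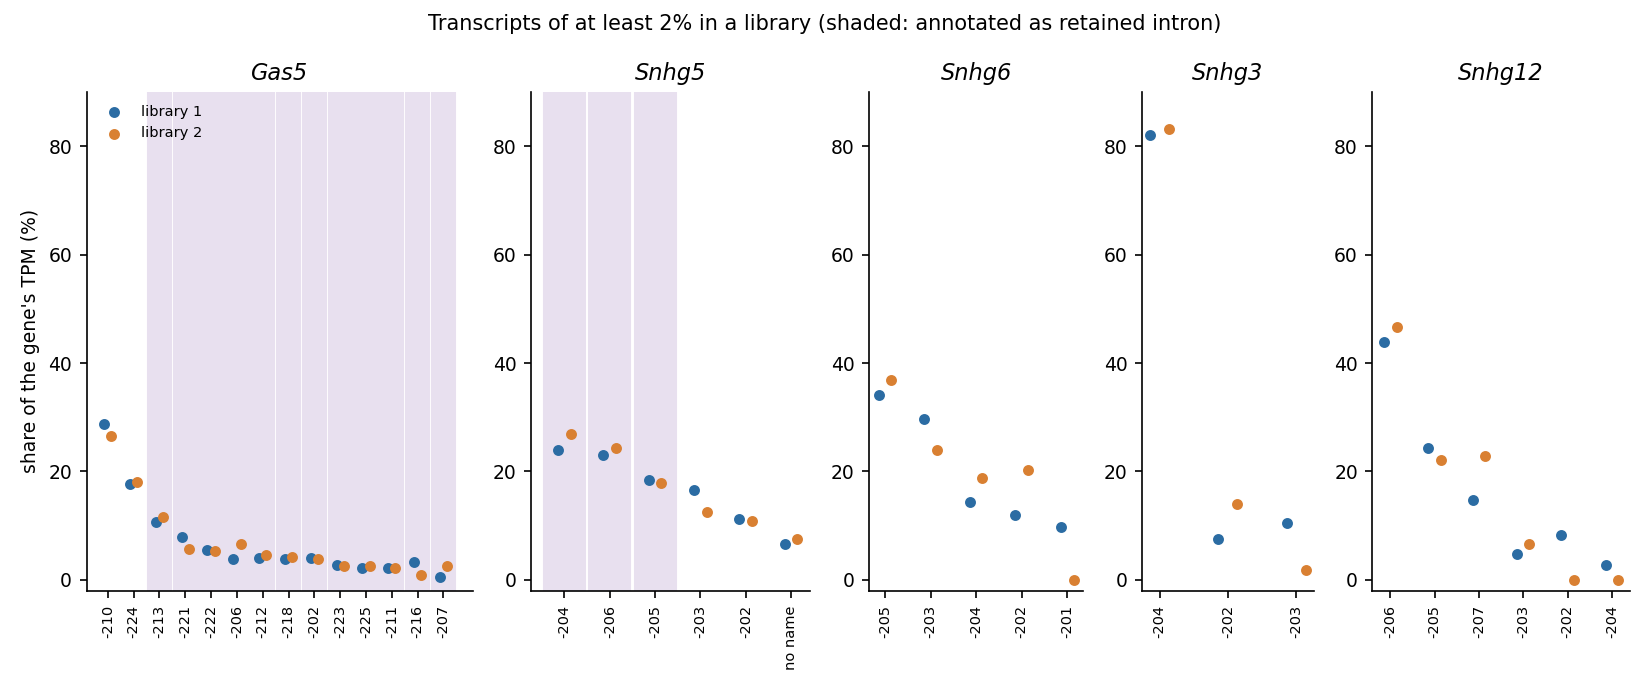
Share of each host's TPM given to its transcripts, in percent, in library 1 (blue) and library 2 (orange), for transcripts of at least 2% in a library; names are shortened to the number after the gene, and shaded transcripts are annotated as retained intron. Snhg3-204 holds 82.0% and 83.1% of Snhg3, while no transcript of Gas5 exceeds 28.7%. The first 3 places of Snhg5 by listed share are retained-intron forms, the third not firmly so in library 1.

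An annotated retained intron need not contain a snoRNA, so transcripts were also sorted by whether an exon holds a whole snoRNA, using those whose length in the files equals that in M21 (a criterion added after the annotation was read). In Gas5, 16 of 25 transcripts did, with 34.2% and 37.1% of its TPM (35.7 ± 2.08%, n = 2), or 155 and 172 TPM against 298 and 291 TPM without any. In Snhg5, 2 transcripts did, with 42.4% and 44.8% (43.6 ± 1.66%). Another 29.77% and 31.85% of Snhg5 TPM lay in transcripts absent from M21 or of another length there, which were not sorted. In Snhg12, 2 transcripts did, with 19.4% and 29.4% (24.4 ± 7.05%), while 36.7% and 23.9% of its TPM lay in transcripts of another length in M21. In Snhg3 and Snhg6 no annotated transcript held a whole snoRNA in an exon. Their 0 is a property of the models and of this rule, and not a measurement. Snhg3-202, which begins inside Snora73a, was not counted under it.

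Under the whole-snoRNA rule, the shares of Gas5 that kept each of its 9 snoRNAs were uneven along the gene and alike between the libraries. The number of annotated transcripts that hold a locus is also uneven, with 6 for Snord78 and 1 for Snord80. Snord78 was kept whole in 17.4% and 17.6% of Gas5 TPM, the largest share. Gm22357 followed with 11.4% and 11.6%, then Mir5117, a locus typed as snoRNA in spite of its name, with 9.85% and 10.1%, and Gm23212 with 9.26% and 9.53%. The share of Gm23212 leaves out Gas5-221, which begins inside that locus and took 7.91% and 5.64%, so the order depends on the rule. Snord80 had the smallest share, 2.66% and 2.62%. The largest difference between the libraries among the 9 was 0.76 percentage points, for Gm22489. Some transcripts keep several snoRNAs: Gas5-218, of 2556 bases, holds 6 of them and took 3.78% and 4.14%. These shares rest on how reads were divided among 25 overlapping models, and the posterior SD of the count of Gas5-218 was 3.94% and 3.56% of the count, but 19.3% and 29.4% for Gas5-211, which holds Gm22357 and Snord78.

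**Figure D4:**
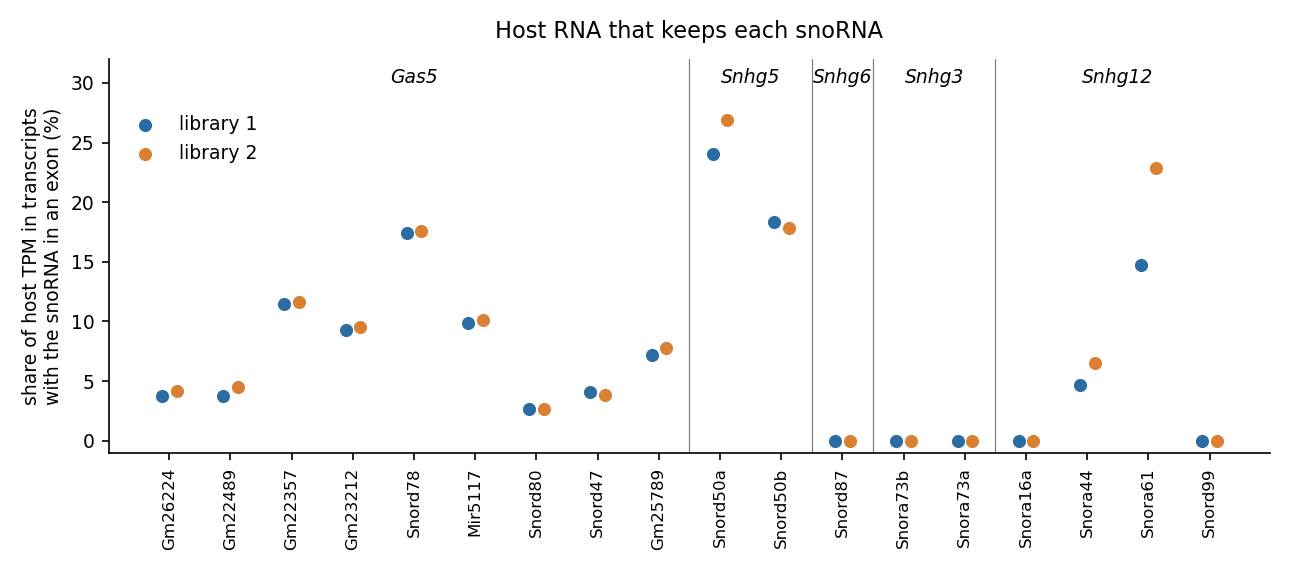
For each of the 18 hosted snoRNAs, the share of the host's TPM in transcripts that hold the whole snoRNA in an exon, in percent, in library 1 (blue) and library 2 (orange), grouped by host. Snord78 stands highest in Gas5 at 17.4% and 17.6%, the Snord50 pair lies between 17.9% and 26.9%, and points at 0 have no such transcript among the models used.

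In Snhg5 the 2 copies were held by different annotated transcripts. The copies differ at 1 of 72 positions and are followed by the same 20 bases. Reads of the pair may therefore not be separable, and the 2 shares are not firm for each copy. Snhg5-204 holds Snord50a at its bases 655 to 726 of 883, and Snhg5-205 holds Snord50b at its bases 2 to 73 of 614. The stretches below give each snoRNA in capitals with up to 20 bases of host RNA on either side in lower case, to show that 1 copy sits inside its transcript and the other at its very start.
Snord50a within Snhg5-204: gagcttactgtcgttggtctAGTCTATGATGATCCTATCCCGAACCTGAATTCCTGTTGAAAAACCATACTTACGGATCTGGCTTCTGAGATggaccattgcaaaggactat
Snord50b within Snhg5-205: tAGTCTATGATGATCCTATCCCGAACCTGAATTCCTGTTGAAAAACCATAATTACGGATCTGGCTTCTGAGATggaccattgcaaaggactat
The annotated start of Snhg5-205 is thus 1 base before Snord50b, and this transcript took 18.4% and 17.9% of Snhg5. Other annotated starts also fell at snoRNAs. Gas5-216 begins 3 bases before Mir5117 and took 3.21% and 0.98%, Gas5-221 begins 13 bases inside Gm23212 and took 7.91% and 5.64%, and Snhg3-202 begins 46 bases inside Snora73a and took 7.54% and 13.9%.

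The first bases of host transcripts were read for the TOP form, taken here as C followed by at least 4 pyrimidines (C or T). In 1 of 5 hosts, Snhg5, the leading transcript began this way, against 2.21% of 10160 detected genes whose leading transcript has the same length in both annotations. In 4 of 5, all but Snhg12, some annotated transcript did, against 9.19% of 11143 detected genes. A gene with more annotated transcripts has more starts to match, and Gas5 had 25. In Snhg3 the match was Snhg3-203 alone, at 10.5% and 1.83% and not firmly measured in library 2. The annotated starts find the form in few genes of the class that defines it: among cytosolic ribosomal protein genes the leading transcript had it in 4 of 54 and any transcript in 18 of 62. The first 30 bases are given with the opening run of pyrimidines in capitals, for the leading transcripts and for the start nearest to the TOP form.
Gas5-210 (start chr1:161035067): gagggcgtgtgaggggcggggtttaagtgg
Gas5-224 (start chr1:161035163): agcctttcggagctgtgcggcattctgagc
Gas5-213 (start chr1:161035166): CTTTCggagctgtgcggcattctgagcagg
Snhg5-204 (start chr9:88522888): CTTTTacgacggagcctaagatattctttg
Snhg6-205 (start chr1:9943223): atgccgtttcctgttctaatgtcccagtga
Snhg6-203 (start chr1:9944118): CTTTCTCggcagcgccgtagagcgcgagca
Snhg3-204 (start chr4:132353686): gacttccgggcgttacttaaggtataaata
Snhg3-203 (start chr4:132353633): CTCTCTaggcgtcgctctcttggtgtgctt
Snhg12-206 (start chr4:132308678): TTTCTCgcttcatccgcggtccctgtctgt
Gas5-224 and Gas5-213 read the same letters from starts 3 bases apart. In Gas5, 14 of the 25 transcripts begin within 25 bases of the start of Gas5-224, with 45.4% and 49.0% of its TPM, while 4 transcripts that begin upstream, Gas5-210 among them, took 33.1% and 31.4%, and 7 that begin downstream took 21.4% and 19.7%. In Snhg6 the 3 transcripts within 25 bases of the pyrimidine start of Snhg6-203 took 56.1% and 63.1%, and the leading Snhg6-205 begins farther downstream. A match of letters is a description of the annotated window and not a measured start.

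RefSeq (GRCm38.p6) gives starts for 4 of the 5 hosts, with 2 for Gas5. A run of pyrimidines opens 1 of the Gas5 starts, at the first base of Gas5-213, and the Snhg12 start, at the first base of Snhg12-206. No pyrimidine opens the other Gas5 start, the Snhg3 start, at the first base of Snhg3-204, or the Snhg5 start, which lies 9 bases upstream of Snhg5-204, the only leading transcript with the TOP form. The 15 bases before each RefSeq start are in lower case and the 15 from it in capitals.
Gas5, start at chr1:161034601: agggggcgggcccgcGAGCTCGACAGCCCG
Gas5, start at chr1:161035166: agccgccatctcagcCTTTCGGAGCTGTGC
Snhg12, start at chr4:132308678: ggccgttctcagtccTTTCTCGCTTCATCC
Snhg3, start at chr4:132353686: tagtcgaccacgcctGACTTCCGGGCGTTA
Snhg5, start at chr9:88522897: gagctgcggtgaaccGGGCTCGTTCTTTTA
At Snhg12 the run of pyrimidines goes on upstream of the annotated first base.

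Other genes overlap the hosts, and without a stated strandedness the reads of shared bases may not be separable. Zbtb37, a zinc finger gene on the opposite strand, shares 428 bases with the 5′ part of Gas5 and was at 6.22 and 7.68 TPM. Rcc1, the guanine nucleotide exchange factor of Ran, lies on the same strand as Snhg3, shares 5592 bases of its span and starts 81 bases from it, and was at 46.4 and 45.6 TPM, above Snhg3 in both libraries. Gm17300, on the opposite strand, shares 1611 bases with Snhg3 and was at 3.62 and 3.14 TPM. Mcmdc2 overlaps the 3′ end of Snhg6 by 127 bases on the opposite strand, at 1.99 and 1.94 TPM. The posterior SD of the gene count was 2.06% and 2.13% of the count for Snhg3 and below 1% in both libraries for the other 4 hosts.

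Detection was also counted over all hosts in the annotation, beside the other genes of their kind. Of 46 long non-coding genes whose span holds a snoRNA on the same strand, the 5 described here included, 25 were detected (54.3%), against 541 of 5648 without one (9.58%). Among those detected the median level was 19.5 TPM with a snoRNA and 2.85 TPM without. Of 276 protein-coding genes with a snoRNA, 233 were detected (84.4%), against 58.2% of 21198 without. These are counts over an annotation, with no test.

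Of 14 other non-coding hosts in a list, 10 were matched and all 10 were detected, at a median of 19.7 TPM. Snhg20 led at 61.1 and 60.0 TPM, followed by Rian, the imprinted host of a snoRNA cluster, at 55.5 and 51.8 TPM, and Zfas1 at 41.5 and 45.5 TPM. All 10 lay below Gas5, Snhg5 and Snhg6 in both libraries, and none of the 9 with enough counts was at least 25% apart. Of the 13739 genes with enough counts 14.8% were, and in a list this short none is near that share. All 27 protein-coding hosts of the list were detected, at a median of 505 TPM. Among the highest were Hspa8, a chaperone, at 3060 and 3186 TPM, and the ribosomal protein gene Rpl4, at 1090 and 1101 TPM. Gas5, at 457 TPM, was the nearest of the 5 to that median.

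The mRNAs of the listed proteins that bind and process snoRNAs were all detected, apart from 1 assembly factor that was not matched. Beside the lists here and below, 32% of all annotated genes were detected. Of the box C/D core, Nop56 was at 268 and 301 TPM, Snu13 at 265 and 259 TPM, Nop58 at 227 and 261 TPM and fibrillarin (Fbl), the methyltransferase, at 30.6 and 34.5 TPM. Of the H/ACA core, Nop10 was at 143 and 136 TPM, Nhp2 at 131 and 127 TPM and dyskerin (Dkc1), the pseudouridine synthase, at 106 and 99.2 TPM. None of these 8 core genes was at least 25% apart. With 14.8% of the 13739 genes that far apart, the small counts in these short lists, here and below, are near that share. Of 11 assembly factors, led by the ATPases Ruvbl1 (149 and 139 TPM) and Ruvbl2 (112 and 112 TPM) and by Pih1d1 (78.5 and 76.6 TPM), 2 were: Shq1, a dyskerin chaperone, at 17.2 and 13.5 TPM, and Naf1, an H/ACA assembly factor, at 3.27 and 4.24 TPM. All 6 genes of lariat debranching and trimming were detected, Xrn2 at 93.0 and 96.0 TPM, Exosc10 at 83.2 and 86.3 TPM and Exosc3 at 73.4 and 75.6 TPM, and none was at least 25% apart.

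All 10 genes of nonsense-mediated decay were detected at a median of 14.6 TPM. Upf3a was at 39.5 and 38.9 TPM and Smg5 at 29.4 and 25.6 TPM, and 1 was at least 25% apart, Smg9, a regulator of the kinase SMG1, at 14.1 and 10.4 TPM. All 8 genes of TOP mRNAs and their control were detected. Cnbp was at 965 and 1035 TPM, Rps6 at 581 and 609 TPM and Eif4ebp1 at 70.1 and 69.5 TPM. None of the 8 was at least 25% apart, against 14.8% of the 13739 genes.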

How the data were processed

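Total RNA-seq of 2 libraries of 1 group was analysed from the authors' gene and transcript tables. Per the notes deposited with the files, quantification used GENCODE M4 on mm10. Aligner, quantifier, their versions and strandedness are not given in the sources used here. Expected counts, per the file headers, are the authors' estimated reads with no normalization. TPM was computed by the authors over all entries, spike-ins included. The isoform percent is the authors' share of a gene's TPM. Posterior SDs and other score columns were used as deposited.

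Symbols, types, exons and sequences came from GENCODE M21 (GRCm38) by identifier without version. Exons and starts were used only for transcripts of equal length in both. Count ratios used TMM (edgeR 4.0.16, R 4.3.3) on genes with at least 10 counts, checked on simulated data, with DESeq2 1.42.0 size factors as an alternative. Intervals are exact 95% Clopper-Pearson. Named were the 5 hosts, their transcripts of at least 10% in either library, overlapping genes or those starting within 2000 bases, and from each list the top 3 by TPM, those below 1 TPM in both libraries and those at least 25% apart between the libraries, where 5 or fewer. Fbl, Snhg6-201 and transcripts named for the snoRNAs they hold or start at were chosen after their values were seen. The members and lists were chosen with earlier results of these data known. Some listed genes that this rule would name are not reported here.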

Additional observations from a re-analysis of the deposited data

How the results depend on the processing

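The retained-intron share of Gas5 was 67.56% as a share of expected counts and 28.55% over transcripts of at least 5%, and that of Snhg5 was 75.92% as a share of expected counts. Leaving out each library in turn gave 53.15% to 54.83% for Gas5 and 65.47% to 69.14% for Snhg5. The count of hosts with a pyrimidine start was 4 for any annotated start and 2 within 5 bases after the leading start, against 1 at the leading start. All 20 library ratios under total counts, DESeq2 size factors, TMM with no filter and TPM stayed within the counting interval, and the median log2 ratio ranged from 0.049 to 0.0935. TPM over annotated genes only raised all 5 levels, Gas5 to 541.9 TPM, since spike-in and control sequences took 15.4% and 15.8% of TPM, and posterior mean TPM was 449.5 for Gas5 and 91.1 for Snhg5. As a share of expected counts, transcripts with a snoRNA in an exon held 51.86% of Gas5. Detection at 0.5 or 5 TPM, a fold of 1.5 and the leading transcript by posterior mean left their counts as reported. At 1% in both libraries Gas5 had 12 transcripts in use, and at 10% it had 3. Gas5 ranked 38 among genes that are not protein-coding. Depth limits Snhg12 (132 and 142 counts) and Snhg3 most. No paired analysis was possible because there is only 1 group.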
